A study of Mus musculus with 9 samples.

Results

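AP-1 is a family of transcription factors that bind DNA as pairs, and 8 of its genes are described here: the FOS genes Fos, Fosb, Fosl1 and Fosl2, the JUN genes Jun, Junb and Jund, and the ATF gene Atf3. They were taken by gene symbol, and each matched 1 row of the 27179 genes in the deposited matrix. All 9 RNA-seq libraries were made from flow-sorted cells of the fibrous tissue that surrounds an implant in the mouse tibia, taken 2 weeks after surgery. The sort kept lineage-negative (Lin-) cells with the red fluorescent protein tdTomato, described in the labels as stromal cells of the bone marrow. In both groups the mice carried Lepr-CreERT, a tamoxifen-inducible Cre recombinase driven by the leptin receptor gene, together with the Tdtomato reporter, and all were given tamoxifen. The 5 conditional knockout (cKO) libraries were from Lepr-CreERT;Tdtomato;Grem1fl/fl mice, in which Grem1, the gene of a secreted bone morphogenetic protein antagonist, can be deleted in these cells. The 4 control libraries were from Lepr-CreERT;Tdtomato mice described as Cre-only littermates, which have no floxed Grem1 alleles. Cre can act only where Lepr is or was active, and the age of the mice and whether each library was a separate animal are not stated, so the p-values below rest on differences among libraries that may be partly technical.

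FOS and JUN proteins each carry a basic region that touches DNA and a leucine zipper that holds the pair together. FOS proteins need a JUN partner, while JUN proteins can also pair with each other, and the pair binds the site TGACTCA. Fos, Fosb, Jun, Junb and Atf3 are immediate early genes, switched on quickly by growth factors, stretch, cytokines or stress through MAP kinases, while Fosl1 and Fosl2 usually respond later. In mouse bone, Fosl1 and Fosl2 are known for their part in matrix production by osteoblasts, and Fos for its need in osteoclast formation.

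The libraries differed in depth, which bears on every comparison. cKO replicates 1 to 4 held 76.3 to 87.2 M recovered reads and cKO replicate 5 held 43.5 M, against 44.8 to 53.4 M in the controls. Grem1, the targeted gene, averaged 89.6 ± 38.2 normalized counts in cKO libraries (SD, n = 5) and 572 ± 171 in controls (SD, n = 4), and no cKO library reached the lowest control. Lepr stood at 9822 to 15785 in cKO replicates 1 to 4 and at 1347 in cKO replicate 5, against 18730.3 and 40594 in controls 1 and 3. Controls 2 and 4 had 5379.9 and 935. On the first principal component of all genes tested (37.9% of the variance), cKO replicates 1 to 4 lay between -126 and -74.1, cKO replicate 5 at 26.8 and the controls between 90.4 and 104, so cKO replicate 5 stood apart from both groups and nearer to the controls. The 15 markers of LEPR+ stromal cells summed to 6.53% to 15.2% of normalized counts in cKO libraries and 7.30% to 8.36% in controls, and none was at 0 in any library. Genes of other cells moved with genotype as well: 17 skeletal muscle markers summed to 0.158% to 1.39% of normalized counts in cKO libraries and 0.000847% to 0.00393% in controls. In a bulk sample, fewer cells of a type and less RNA per cell cannot be told apart.

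The 6 genes other than Fosl1 and Fosl2 had positive log2 fold changes in cKO libraries and Fosl1 and Fosl2 had negative ones, and only 3 of the 8 of these differences passed the test. A gene was called when limma, fitted to all 15832 genes with enough reads, gave a Benjamini-Hochberg adjusted p under 0.05. All 8 members were tested. Jun and Jund were called higher, and Fosl2 was called lower. Over all genes tested, 4.61% were called higher and 2.87% lower. The median log2 fold change of the 8 members was 1.17, against -0.0039 over all genes tested. The summed normalized counts of the 8 genes made up 0.723%, 0.77%, 1.21%, 0.461% and 0.332% of cKO replicates 1 to 5. In control replicates 1 to 4 they made up 0.302%, 0.162%, 0.356% and 0.199%. The sum was thus above every control in cKO replicates 1 to 4, and inside the control range in cKO replicate 5.

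The DNA just before the start of Jun, Fos and Fosl2 is shown because Jun and Fosl2 were called in opposite directions and Fos had the largest positive difference of the 8. Each line holds the 250 bases before the annotated start, from RefSeq on build GRCm38.p6, 5′ to 3′ on the gene's strand. Capitals mark exact matches to the motifs that these stretches hold: TGACATCA (a variant of the AP-1 and cAMP response sites), TGACG (the start of the cAMP response site), CCAAT (the CCAAT box) and GGGCGG (the SP1 box, CCGCCC when read on the other strand), each searched on both strands, and TATAAA (the TATA box), searched on the gene's strand. TGACG is part of the full cAMP response site TGACGTCA.
Jun: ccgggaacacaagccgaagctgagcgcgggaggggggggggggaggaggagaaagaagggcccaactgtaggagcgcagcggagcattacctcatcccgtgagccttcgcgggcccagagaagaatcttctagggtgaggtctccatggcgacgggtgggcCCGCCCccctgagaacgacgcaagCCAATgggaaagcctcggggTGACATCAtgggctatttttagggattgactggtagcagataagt
Fos: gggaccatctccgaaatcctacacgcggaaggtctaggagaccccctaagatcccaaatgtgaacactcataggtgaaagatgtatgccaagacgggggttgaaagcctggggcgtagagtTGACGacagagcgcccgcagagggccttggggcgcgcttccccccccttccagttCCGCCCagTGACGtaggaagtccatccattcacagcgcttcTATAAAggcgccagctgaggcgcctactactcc
Fosl2: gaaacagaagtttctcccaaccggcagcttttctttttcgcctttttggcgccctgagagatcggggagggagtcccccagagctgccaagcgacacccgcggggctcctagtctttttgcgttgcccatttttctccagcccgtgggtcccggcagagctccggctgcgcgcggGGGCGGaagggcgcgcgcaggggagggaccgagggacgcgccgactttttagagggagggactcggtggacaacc

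These stretches lie at chr4:95052223-95052472, minus strand for Jun, at chr12:85473640-85473889, plus strand for Fos and at chr5:32136222-32136471, plus strand for Fosl2. The motifs were searched in windows of 300 bases, which reach past the start, in the 7 members that have such a window and in 27025 genes in all. TGACTCA, the AP-1 site, occurred in 0 of the 7 and in 5.17% of all windows, and TGACGTCA, the cAMP response element, in 0 of the 7 and in 1.88%. Jun alone among the members held TGACATCA, which begins 45 bases before its start and is found in 3.76% of all windows. TGACG, the first bases of the cAMP response element, was present in Fos, Fosb, Junb and Atf3 and in 21% of all windows. TATAAA was present in Fos and Junb (8.88% of all windows), CCAAT in Jun, Junb and Atf3 (37.9%), and GGGCGG in 5 members including Fosl2 (35.9%). The TATAAA of Fos begins 33 bases before its start, while the TATAAA of Junb and the CCAAT of Atf3 do not lie before the start. TGACATCA and TGACG were added to the search after the windows had been seen. A match of letters is a description and does not show that a protein binds there.

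Fos, the founding FOS gene, had 190714, 238029, 355479.6, 120968 and 82406 normalized counts in cKO replicates 1 to 5, against 83719, 41424, 92782 and 54627 in control replicates 1 to 4. The first 4 knockouts lay above every control, as for 15.2% of all genes tested, and cKO replicate 5 lay among the controls. Fos averaged 197519 ± 106946 in cKO libraries and 68138 ± 24127 in controls (SD, n = 5 and 4). The log2 fold change was 1.43 (SE 0.42, 95% interval 0.48 to 2.37), with a limma adjusted p of 0.0668, so Fos was not called. In the authors' deposited table its log2 fold change was 1.54 with an adjusted p of 0.00303.

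Fosb, whose product stands in for FOS in many cells, had the same order of libraries as Fos within each group. Its normalized counts were 6436, 6506, 12248, 3907 and 2606 in cKO replicates 1 to 5, against 2722, 1134, 4233 and 2512 in control replicates 1 to 4. cKO replicates 1, 2 and 3 stood above every control, while replicates 4 and 5 fell inside the control range. The log2 fold change was 1.21 (SE 0.47, 95% interval 0.17 to 2.25, limma adjusted p = 0.128), and Fosb was not called. The authors' deposited table gives an adjusted p of 0.0453.

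**Figure D1:**
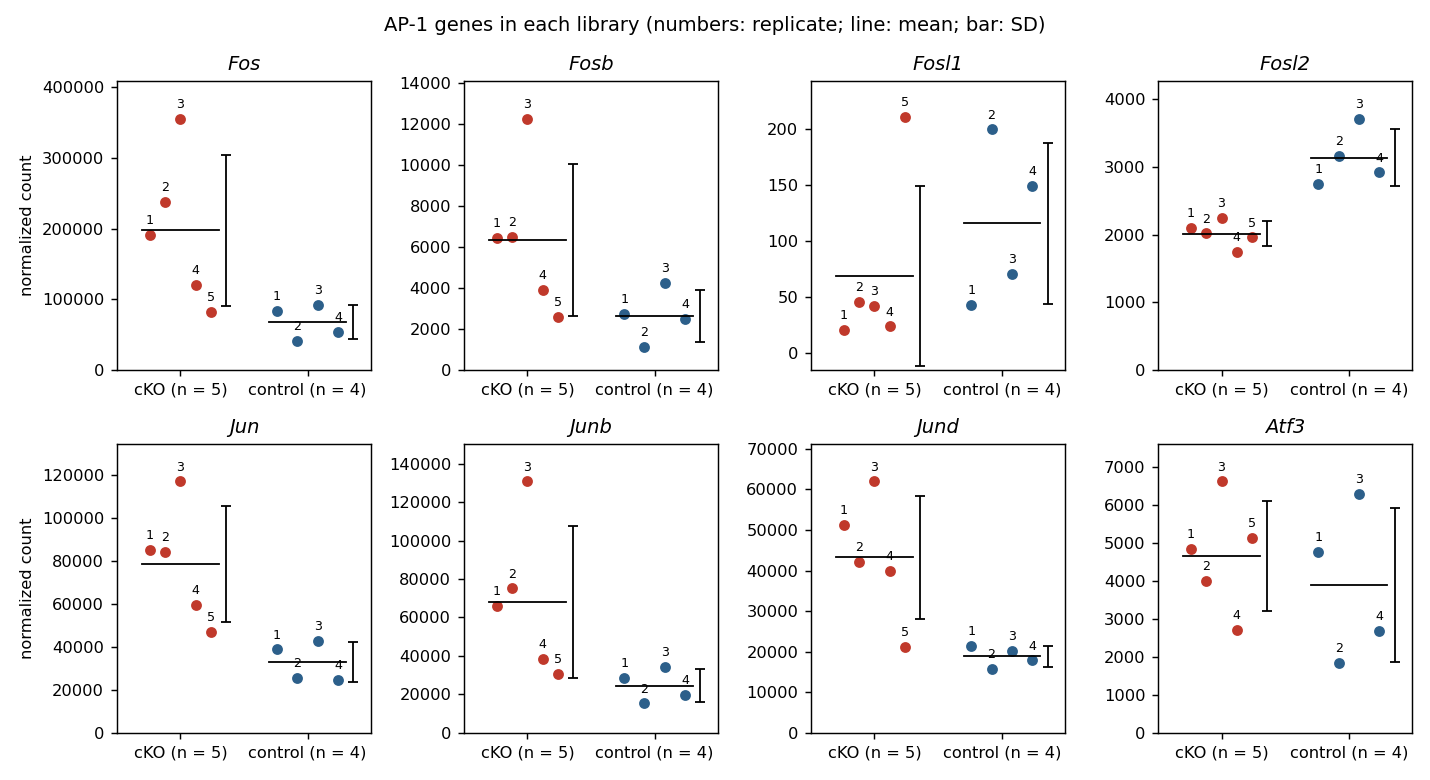
Normalized count (linear axis) of each AP-1 gene in the 5 cKO and 4 control libraries. Points are libraries with their replicate number, lines are means and bars are SD. Jun lies above every control in all 5 cKO libraries and Fosl2 lies below every control in all 5, while Fos, Junb and Jund in cKO replicate 5 lie among the controls.

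Fosl2 encodes FRA2, a FOS protein without the strong activation domain of FOS. It had 2104, 2018, 2244, 1747 and 1958 normalized counts in cKO replicates 1 to 5, against 2741, 3166, 3708 and 2916 in control replicates 1 to 4. All 5 cKO libraries lay below all 4 controls, which was so for 4.6% of all genes tested. Fosl2 fell to 2014 ± 184 in cKO libraries, against 3133 ± 421 in controls (SD, n = 5 and 4). It was the least variable member, with a highest library 1.28 times the lowest among cKO libraries and 1.35 times among controls. The log2 fold change was -0.63 ± 0.13 SE (adjusted p = 0.0213 by limma), and the authors' deposited table gives -0.64 with an adjusted p of 0.000108. The call was lost when cKO replicate 1 or 4 or control replicate 2, 3 or 4 was left out, with limma adjusted p between 0.0515 and 0.0622.

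Fosl1, which encodes FRA1, was the member with the fewest reads, 28 to 160.0 per library. Its normalized counts were 20.6, 45.8, 42.0, 23.8 and 212 in cKO replicates 1 to 5, against 43.2, 200.02, 71.1 and 149.5 in control replicates 1 to 4. cKO replicate 5 was higher than all other libraries, and the other 4 knockouts lay at the low end, with only control 1 as low. The log2 fold change was -1.08 (SE 0.79, 95% interval -2.82 to 0.67, limma adjusted p = 0.411), so no difference was called. Without cKO replicate 5 the value was -1.62 (limma adjusted p = 0.102), and cKO replicate 5 alone differed from the controls by 1.10, the other direction. Fosl1 overlaps Ccdc85b in the RefSeq table, so some of its few reads could belong to that gene.

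Jun, the central partner of the family, had 84863, 83913, 116781, 59605 and 47029 normalized counts in cKO replicates 1 to 5. In control replicates 1 to 4 it had 38775, 25641, 42728 and 24775. Jun was the only member for which every cKO library was above every control, as were 6.82% of all genes tested. The means were 78438 ± 26845 in cKO libraries and 32979.7 ± 9125 in controls (SD, n = 5 and 4), and Jun rose 2.33-fold. Its log2 fold change was 1.22 with an SE of 0.28 (95% interval 0.60 to 1.85), and limma gave an adjusted p of 0.0319. The authors' deposited table gives 1.25 with an adjusted p of 0.000494. In the limma fit the call held without cKO replicate 5 or control replicate 3, and was lost without any of the other 7 libraries, with adjusted p between 0.0582 and 0.0908.

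Jund, usually the most constant JUN gene and a brake on growth, had 51152, 42107, 61954, 39862 and 21099 normalized counts in cKO replicates 1 to 5. The controls had 21391, 15774, 20295 and 17875 in replicates 1 to 4. The controls lay close together, the first 4 knockouts were well above them, and cKO replicate 5 was just below control 1. Jund rose 2.18-fold (log2 fold change 1.12 ± 0.27 SE, adjusted p = 0.039 by limma), and the authors' deposited table gives a log2 fold change of 1.20 with an adjusted p of 0.000517. Leaving out any library other than cKO replicate 5 ended the call, with limma adjusted p between 0.0700 and 0.1002.

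Junb, a JUN gene with weaker activation than Jun, had 65812, 75093, 130696, 38636 and 30604 normalized counts in cKO replicates 1 to 5. The controls had 28501, 15299.5, 34474 and 19913. As for Fos, the first 4 knockouts were above every control and the fifth was not. Junb averaged 68168 ± 39517 in cKO libraries and 24547 ± 8586 in controls (SD, n = 5 and 4). The log2 fold change was 1.35 (SE 0.41, 95% interval 0.44 to 2.27) and the limma adjusted p was 0.0705, so it was not called. The authors' deposited table gives 1.47 with an adjusted p of 0.00541.

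Atf3, a stress-induced factor that pairs with JUN proteins and often represses, did not have the first 4 knockouts above every control. It had 4839, 3995, 6610.2, 2707 and 5136 normalized counts in cKO replicates 1 to 5, against 4761, 1835, 6289 and 2684 in control replicates 1 to 4. The groups overlapped over most of their range. The log2 fold change was 0.36 (SE 0.37, 95% interval -0.46 to 1.17, limma adjusted p = 0.561), which leaves room for a rise of the size seen in Jund.

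The calls depended on which libraries were compared. Without cKO replicate 5, the knockout that stood apart on the first principal component, in Lepr and in depth, limma called Fos (log2 fold change 1.70, adjusted p = 0.012), Fosb (1.48, adjusted p = 0.0405) and Junb (1.60, adjusted p = 0.0176) as well as Jun (1.39) and Jund (1.36). That made 5 members higher and 1 lower. The number of all genes called higher also grew, to 1963 of 15832. cKO replicate 5 was also set alone against the 4 controls, and with 1 knockout library only the size of each difference is given. The log2 difference of cKO replicate 5 from the controls was 0.35 for Fos, 0.12 for Fosb, 0.55 for Jun, 0.39 for Junb and 0.17 for Jund. Fosl2 was the exception among the called genes, at -0.67 in cKO replicate 5 and -0.62 in the other 4. The spread in that comparison comes from the controls, and the lone knockout is assumed to vary like them. Depth and genotype cannot be fully told apart here, since no control reached the depth of cKO replicates 1 to 4. With all libraries thinned to the smallest read total, the same counts of members were called as before, 2 higher and 1 lower. Thinning evens the read totals only, so it cannot address other differences between libraries that go with depth.

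**Figure D2:**
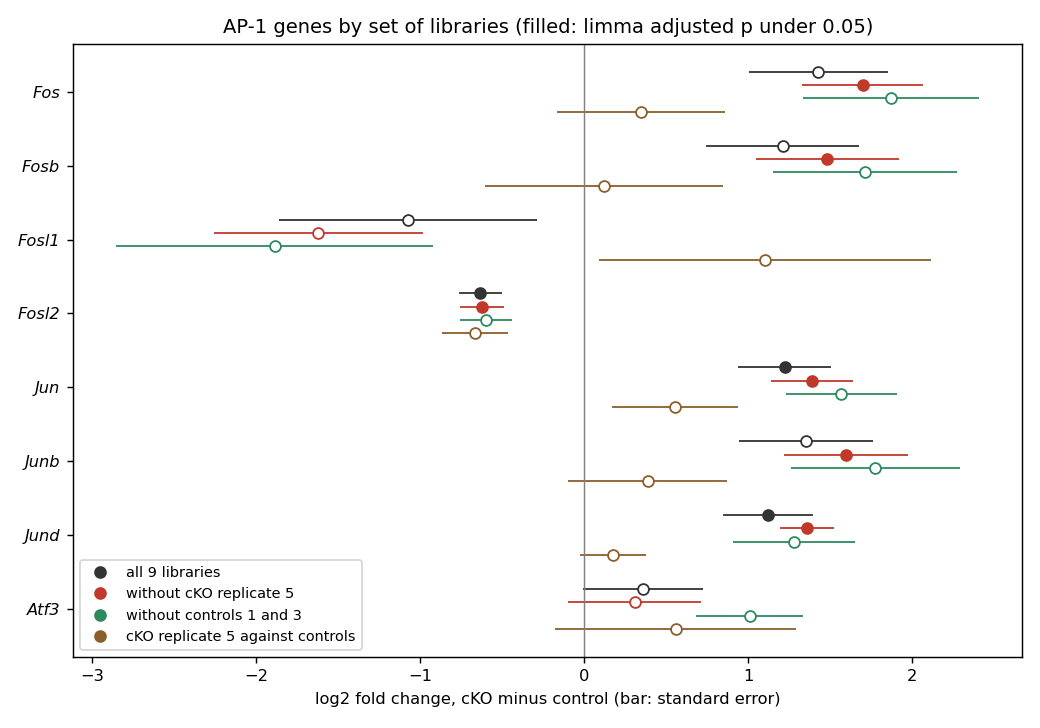
Log2 fold change of each AP-1 gene, cKO minus control, with its standard error, for 4 sets of libraries. Filled points have a limma adjusted p under 0.05. Fosl2 lies between -0.67 and -0.60 in all 4 sets, while the JUN genes and Fos and Fosb lie nearer to 0 for cKO replicate 5 alone.

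The controls were split as well. Control replicates 1 and 3 were both above controls 2 and 4 for 6 of the 8 members, namely Fos, Fosb, Jun, Junb, Jund and Atf3, and for 23.6% of all genes tested. The mean of controls 1 and 3 over that of controls 2 and 4 was 1.84 for Fos, 1.91 for Fosb, 1.62 for Jun, 1.79 for Junb, 1.24 for Jund and 2.45 for Atf3. For Fosl1 it was 0.327, the opposite order, and for Fosl2 it was 1.06. Markers of endothelial cells followed that split: the 16 endothelial markers summed to 0.0166% to 0.0346% in cKO libraries, to 0.468% and 0.607% in controls 1 and 3, and to 0.0246% and 0.0345% in controls 2 and 4. Emcn, Robo4 and Sox17 were each at 0 in 2 cKO libraries and in no control. Lepr and the heat shock genes Hspa1a and Hspb1 differed between the same controls. The mean of controls 1 and 3 over that of controls 2 and 4 was 9.39 for Lepr, 1.82 for Hspa1a and 2.14 for Hspb1. Summed, the 14 heat shock genes had the opposite order. They made up 0.321% and 0.325% in controls 1 and 3, against 0.347% and 0.336% in controls 2 and 4. The part of these genes in the AP-1 levels was not tested. Since controls 1 and 3 were the higher ones for 6 members, leaving them out had to raise those differences, so the rise is no separate result. The log2 fold changes became 1.87 for Fos, 1.71 for Fosb, 1.57 for Jun, 1.78 for Junb, 1.28 for Jund and 1.01 for Atf3. No member was called with 2 controls left.

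Within each genotype, Fos, Fosb, Jun, Junb and Jund went up and down together across libraries. After the mean of each genotype was subtracted from log2(normalized count + 1), the 10 pairs among these 5 genes had Pearson r between 0.83 and 0.99 and Spearman rho between 0.80 and 0.98 over 9 libraries. cKO replicate 3 was the highest knockout for 7 of the 8 members, and cKO replicate 4 was the lowest of the first 4 knockouts for 7. Atf3 was less close to these 5 genes (r 0.31 to 0.69), Fosl2 had r between 0.057 and 0.56 with the other members, and Fosl1 had r between -0.80 and 0.057. Libraries share preparation, depth and cell mixture, so these values describe them and carry no test.

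Among 12659 other genes with a mean of at least 100, the 5 whose within-genotype pattern was most like the mean of the 8 members were Mon2, Socs3, Vps11, Egr1 and Thsd4, with Pearson r of 0.97, 0.97, 0.97, 0.97 and 0.96 over 9 libraries. Egr1, a zinc finger immediate early gene, had 108548, 119380.4, 214006, 61631 and 53680.0 normalized counts in cKO replicates 1 to 5, against 41400.3, 22677, 43957 and 25589 in control replicates 1 to 4. All of its knockouts were above all controls, and Egr1 rose 3.07-fold (limma adjusted p = 0.0405). Socs3, an inhibitor of cytokine signalling, averaged 24648 ± 12127 in cKO libraries and 12097 ± 3957 in controls (SD, n = 5 and 4) and was not called (limma adjusted p = 0.127). Mon2, Vps11 and Thsd4 were not called either, with log2 fold changes of 0.043, 0.50 and -0.55.

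**Figure D3:**
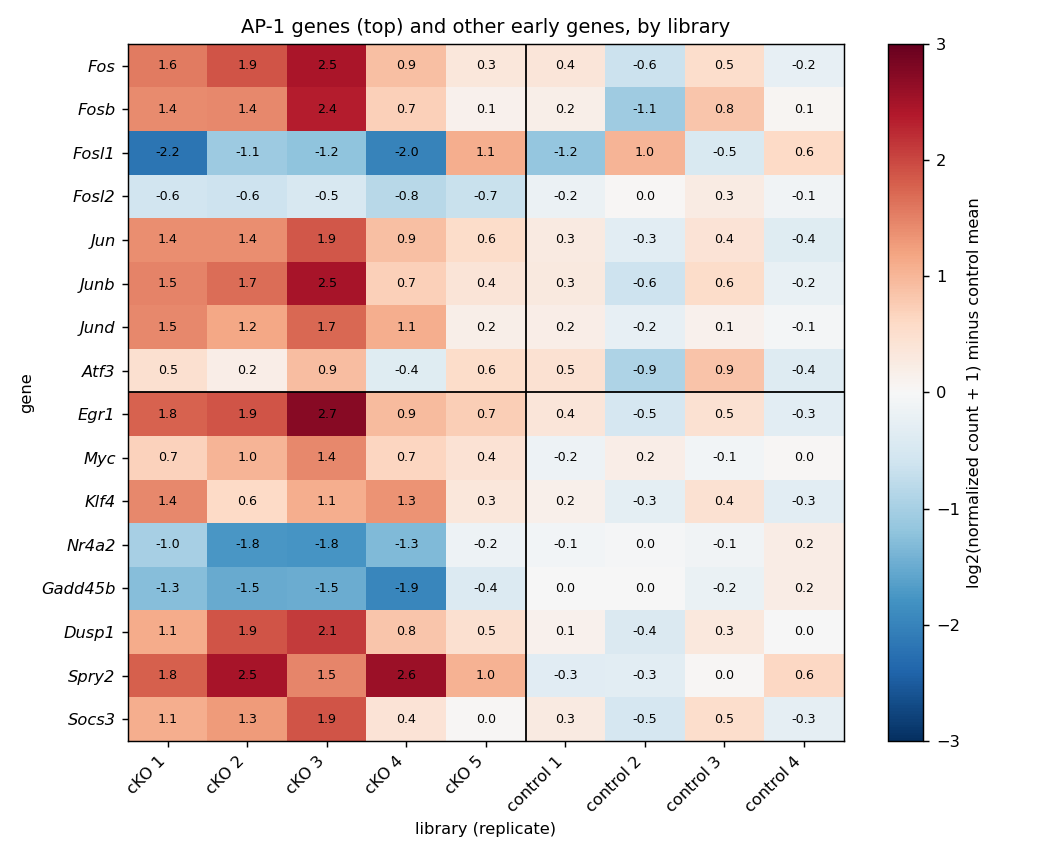
Log2(normalized count + 1) minus the control mean, for the 8 AP-1 genes (above the line) and 8 other early response and feedback genes, in each of the 5 cKO and 4 control libraries. cKO replicate 3 has the highest values for Fos, Jun, Junb and Egr1, and cKO replicate 5 lies inside the control range for 5 of the 8 AP-1 genes (53.1% of all genes tested).

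Set per length, Fos made up the largest share of the family in every library. Levels were divided by the length of the longest matching transcript in GENCODE M21, since the authors' annotation is not given in the sources used here. Fos made up 44.9% to 53.8% of the summed normalized counts per kb of the 8 genes in cKO libraries and 41.4% to 47.3% in controls. Junb made up 17.2% to 22.5% in cKO libraries and 17.8% to 20.4% in controls, Jun 11.4% to 16.9% and 13.4% to 17.0%, and Jund 11.6% to 19.3% and 13.0% to 19.9%. Junb lay above Jun with no overlap of their ranges in either group, while the range of Jund overlapped both, so its place is not fixed beyond the spread. Atf3, Fosb, Fosl2 and Fosl1 each made up at most 3.39%. Fosl2 was the member whose share separated the groups, with 0.107% to 0.344% in cKO libraries and 0.499% to 1.02% in controls. The FOS genes over the JUN genes, per kb, came to 0.988, 1.24, 1.18, 0.918 and 0.907 in cKO replicates 1 to 5, against 1.00, 0.791, 1.03 and 0.919 in control replicates 1 to 4. That ratio overlapped between the groups.

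For each list that follows, the share of all tested genes called was 4.61% higher and 2.87% lower, and a count near that share is no result about the list. Of 23 MAP kinase genes, which carry growth and stress signals to FOS and JUN, 0 were called by limma, and the median log2 fold change was -0.038. In that list 4 genes had an unadjusted limma p under 0.05, against 4266 of all 15832 genes tested. edgeR called 0 and DESeq2 called 2, against 786 of 15832 and 2546 of 15403 over all genes, so none of these counts is an excess. The kinase genes of smallest p were the p38 kinase genes Mapk11 (log2 fold change -1.54, limma adjusted p = 0.0743) and Mapk12 (1.13, limma adjusted p = 0.13). Of 7 genes for factors at the serum response element, Elk3 was called lower, with 2801 ± 1745 normalized counts in cKO libraries and 10138 ± 4610.3 in controls (SD, n = 5 and 4; limma adjusted p = 0.0271). ELK3 is a ternary complex factor that can repress the Fos promoter, and it is also prominent in endothelial cells. Control replicates 1 and 3, with the endothelial markers, had 12306 and 15577 of Elk3, against 6859 and 5810.1 in controls 2 and 4. In controls 2 and 4 the endothelial markers summed to 0.0246% and 0.0345%, against 0.0166% to 0.0346% in cKO libraries. cKO replicates 1 to 4 had 1352 to 2822 of Elk3, and cKO replicate 5 had 5779. All were below every control, as for 4.6% of all genes tested. The part of endothelial cells in the Elk3 levels was not tested. Of 25 tested genes for other basic leucine zipper factors, Nfe2l1 was called lower (1.40-fold, limma adjusted p = 0.046), and the list median was 0.11.

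Of 21 MAP kinase feedback genes, Dusp1 and Spry2 were called higher and 0 lower (median log2 fold change 0.47). That was 9.52% called in either direction, near the 4.61% higher and 2.87% lower of all genes tested. At an unadjusted limma p under 0.05 the list held 9 of 21 genes, against 4266 of all 15832 genes tested. edgeR called 1 and DESeq2 called 7, against 786 of 15832 and 2546 of 15403 over all genes. Dusp1, a phosphatase that switches off MAP kinases, had 60043 ± 28507 normalized counts in cKO libraries and 22913 ± 4813 in controls (SD, n = 5 and 4), a 2.43-fold rise (limma adjusted p = 0.0456). Spry2, an inhibitor of receptor signalling to ERK, rose 3.66-fold (limma adjusted p = 0.0238). Of 21 other immediate early genes, Egr1, Klf4 and Myc were called higher, and Nr4a2 and Gadd45b were called lower (median 0.48), or 23.8% called in either direction. Klf4 and Myc, which encode regulators of growth and cell identity, rose 1.95-fold and 1.80-fold. Nr4a2, an orphan nuclear receptor gene, averaged 1593 ± 830 in cKO libraries and 3342 ± 375 in controls, and Gadd45b, a stress response gene, averaged 1481 ± 660 and 3478 ± 425 (SD, n = 5 and 4). At an unadjusted limma p under 0.05 this list held 12 of 21 genes, against 4266 of all 15832 genes tested. For this list edgeR called 2 and DESeq2 called 9, against 786 of 15832 and 2546 of 15403 over all genes. The early genes called by limma went both ways, while 15 of the 21 had a positive log2 fold change.

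Heat shock genes, which are often raised together with FOS and JUN when tissue is dissociated by enzymes, had 0 of 14 members called by limma (median log2 fold change 0.046). In a list of 14 the shares of all genes called, 4.61% higher and 2.87% lower, leave a count of 0 with little to say. In that list 3 genes had an unadjusted limma p under 0.05, against 4266 of all 15832 genes tested. edgeR called 0 and DESeq2 called 1, against 786 of 15832 and 2546 of 15403 over all genes, so none of these counts is an excess. Summed, these 14 genes held 0.312% to 0.507% of normalized counts in cKO libraries and 0.321% to 0.347% in controls. Hspa1a, the inducible HSP70 gene, had 9432, 14881, 12136, 7621 and 30656 normalized counts in cKO replicates 1 to 5, against 7462, 3738, 7126 and 4291 in control replicates 1 to 4. Every cKO library was above every control, as for 6.82% of all genes tested, and cKO replicate 5 was the highest. The log2 fold change of Hspa1a was 1.29 (limma adjusted p = 0.0672), so it was not called. Hspb1, a small heat shock protein gene, had a log2 fold change of 0.74 (limma adjusted p = 0.103). The part of handling in the AP-1 levels was not tested.

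Of 25 tested genes known as AP-1 targets, S100a4 was called higher and Il6 and Vegfa lower, 5 had a positive log2 fold change, and the median was -0.85. With 4.61% of all genes tested called higher and 2.87% lower, these counts of called genes are near the background. Il6 was put in the list with its lower level already known. At an unadjusted limma p under 0.05 the list held 15 of 25 genes, against 4266 of all 15832 genes tested. edgeR called 2 and DESeq2 called 5, against 786 of 15832 and 2546 of 15403 over all genes. S100a4, a calcium-binding protein gene of fibroblasts, rose 2.43-fold (limma adjusted p = 0.0417). Il6, the cytokine gene, had 49.5 ± 27.2 normalized counts in cKO libraries and 309 ± 41.3 in controls (SD, n = 5 and 4; limma adjusted p = 0.0135). Vegfa, an angiogenic factor gene, fell 2.19-fold (limma adjusted p = 0.0481). The collagenase gene Mmp13, a classic target, had a log2 fold change of -1.38 and was not called (limma adjusted p = 0.103). In cKO replicate 5 alone the list median against controls was 0.24, and in the other 4 it was -0.93. Of 12 bone genes tied to the FRA proteins in mouse, Mgp, an inhibitor of mineralization, was called lower (2.36-fold, limma adjusted p = 0.0453), and the list median was -0.099.

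**Figure D4:**
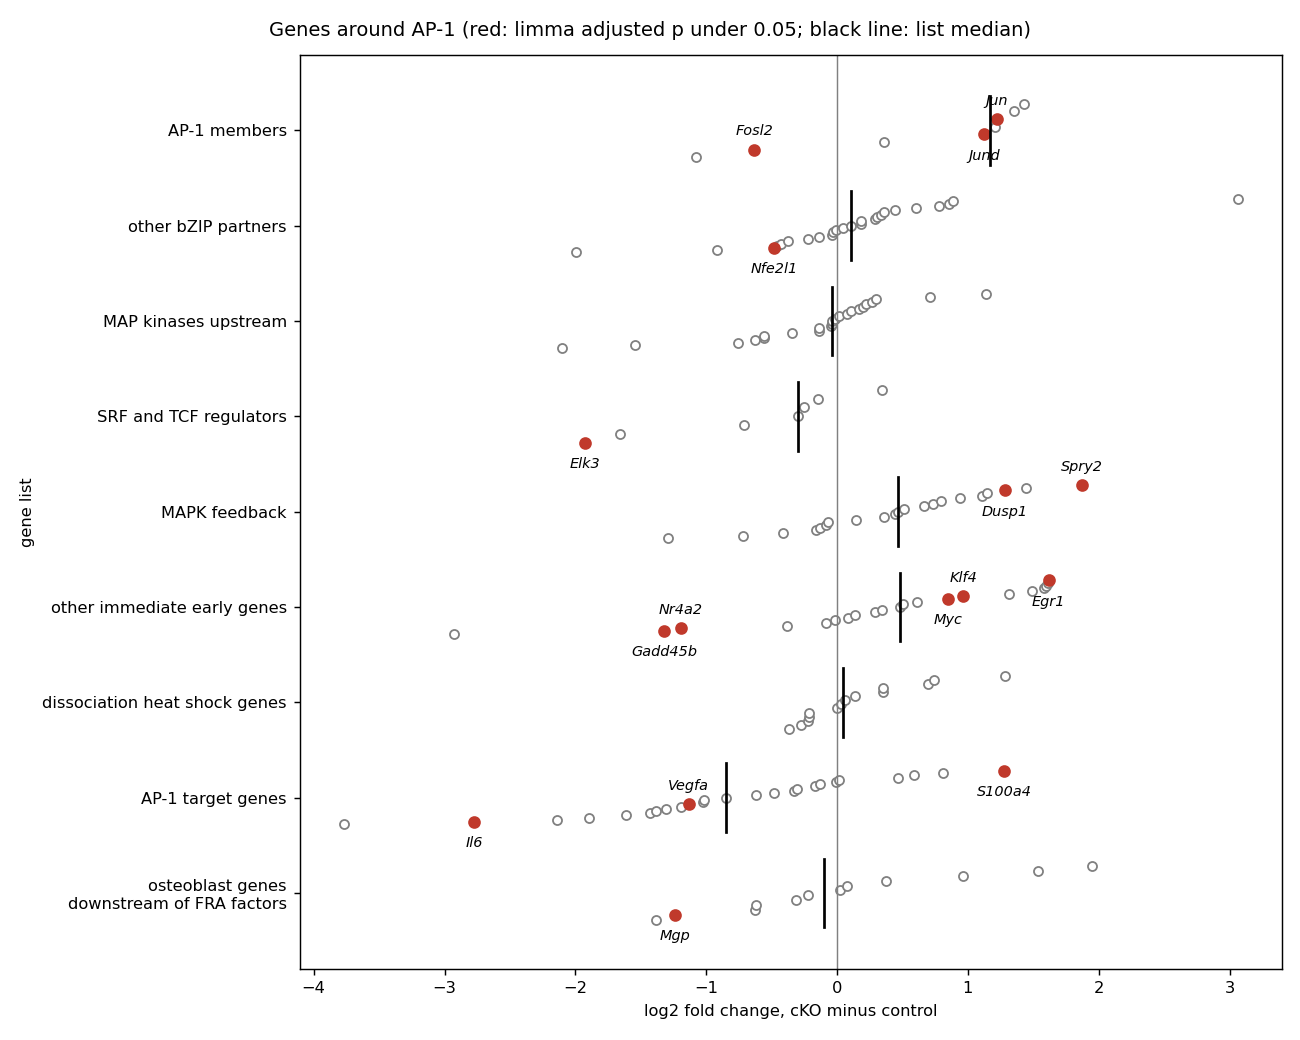
Log2 fold change, cKO minus control, of every tested gene in the AP-1 family and in 8 lists of genes around it. Red points have a limma adjusted p under 0.05, open points do not, and black lines are list medians. Jun, Jund, Dusp1, Spry2, Egr1, Klf4, Myc and S100a4 were called higher, and the median of the AP-1 targets is -0.85.

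Markers of skeletal muscle, Schwann cells and cartilage moved with genotype beside these results. Of 17 skeletal muscle markers 16 were called higher, and Mybpc2 was at 0 in all 4 controls. The 12 Schwann cell markers summed to 0.109% to 0.253% in cKO libraries and 0.0418% to 0.0587% in controls, with Mal at 0 in 1 control. The 20 cartilage markers summed to 0.409% to 2.38% in cKO libraries and 3.79% to 7.90% in controls, and cKO replicate 5 held the 2.38%. The 17 macrophage and monocyte markers summed to 0.0111% to 0.227% in cKO libraries and 0.0519% to 0.111% in controls. These sums overlapped, although C1qa and C1qb were at 0 in 4 knockouts. The 15 neutrophil markers overlapped as well, at 0.11% to 1.53% in cKO libraries and 0.249% to 1.05% in controls. FOS and JUN genes are expressed in all of these cells, and the part of cell mixture in their levels was not tested.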

How the data were processed

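RNA was measured by paired-end sequencing of polyadenylated RNA from 5 cKO and 4 control libraries, grouped by their titles. The authors deposited normalized counts (a signal: each library's gene counts over its size factor) for 27179 Entrez gene IDs, and a table of their own comparison that per the file headers holds log2 fold changes, a test statistic (score) and p-values. Per the submitters' processing notes, STAR, featureCounts and DESeq2 were used with build mm39; tool versions, annotation and strand setting were not stated. Whole reads were recovered by dividing by the smallest value above 0 in each library, and at least 99.99% of values above 0 came out whole within 0.01 of a read. Library totals were 43.5 to 87.2 M reads. Counting error is therefore small beside the spread between libraries except for Fosl1.

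Symbols came from RefSeq GRCm38.p6 names (25275 IDs matched). limma (version 3.58.1, R 4.3.3), with a trended prior, two-sided tests and genotype as the only term, was fitted to log2(normalized count + 1) of 15832 genes with at least 10 normalized counts in at least 4 libraries. P-values were Benjamini-Hochberg adjusted over all of them, and each adjusted p given is from that fit unless the authors' table is named. Fold changes are on that log2 scale. Recovered reads were also tested with edgeR 4.0.16 and DESeq2 1.42.0 as alternatives, with other pseudocounts, filters and scalings, quality weights, a replicate block, thinning and leaving out libraries.

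The members, gene lists and tests were chosen with earlier results of these data known. Named genes were the members, Grem1 and Lepr, up to 3 called genes in each direction per pathway list (or the 2 of smallest p), and the 5 genes most like the members. Mmp13 was named after its value was seen. A comparison of the members' protein sequences was planned and is not reported here.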

Additional observations from a re-analysis of the deposited data

Results flagged for a closer look

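Of 54 groups of 4 or 5 libraries examined, over the 27 genes named by rule, 4 held a library far from the others of its group, and chance gives about 1 in 20. Fosl1 stood at 212 normalized counts in cKO replicate 5, against 20.6 to 45.8 in the other 4 knockouts. Vegfa stood at 4395 in cKO replicate 5, against 1818 to 2444 in the other knockouts. Mapk12 was at 938 in control replicate 1 and between 424 and 447 in the other controls. Mgp was at 55861 in control replicate 2, against 79439 to 83510.4 in the other controls.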

How the results depend on the processing

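Of 207 log2 fold changes of the 8 members and Grem1 under 23 other settings, 206 kept their direction; Fosl1 turned to 1.10 when cKO replicate 5 alone was set against the controls. Other pseudocounts, filters, TMM and upper-quartile scaling, thinning and edgeR left the counts of called members at 2 higher and 1 lower. edgeR called 270 genes lower. Over all genes 730 were higher and 454 lower in limma. DESeq2 called 1568 higher and 978 lower, 5 members higher, with Fos at 1.535, Fosb at 1.26 and Junb at 1.47. Library quality weights gave 2237, 1819 and 5 members higher, with Fos at 1.57, Fosb at 1.40 and Junb at 1.47.

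Same-numbered libraries of the 2 genotypes correlated at -0.0109 to 0.0705, which gives no sign that the numbers pair them. Not every library correlated best with its own number. Such correlations cannot exclude a pairing. The replicate block, in which cKO replicate 5 has no partner and drops out, gave 1508 genes higher and 1207 lower and 5 members higher, with Fos at 1.70, Fosb at 1.48 and Junb at 1.60.

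Leaving out 1 library at a time gave 257 to 1963 genes higher and 120 to 1599 lower, with 0 to 5 members higher and 0 to 1 lower. The log2 fold changes ranged from 1.17 to 1.70 for Fos, 0.85 to 1.48 for Fosb, 1.07 to 1.60 for Junb, 1.06 to 1.39 for Jun, 0.97 to 1.36 for Jund, and -0.69 to -0.55 for Fosl2. Without controls 1 and 3, 280 genes were higher and 58 lower and 0 members were called, with Jun at 1.57, Jund at 1.28, Fosl2 at -0.60 and Grem1 at -2.36 (not called). With only libraries under 60 M reads these were 65, 18 and 0, with Jun at 0.55, Jund at 0.17, Fosl2 at -0.67 and Grem1 at -3.16 (not called). Without cKO replicate 5 and controls 1 and 3, chosen after seeing the data, 1693 genes were higher and 1113 lower, with 5 members higher and 2 lower, Fos at 2.14, Fosb at 1.99, Junb at 2.02 and Fosl1 at -2.43. Fewer libraries enter these fits; beyond that the cause of each change was not tested.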

Other observations

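Several feedback and early genes had log2 fold changes like those of Fos and Junb without being called, and were picked after their values were seen. Btg2, an antiproliferative gene, averaged 34424 normalized counts in cKO libraries and 10296 in controls (log2 fold change 1.59, limma adjusted p = 0.0612). Ier2, an immediate early gene, averaged 33792 and 12269.8 (1.32, limma adjusted p = 0.0619). Zfp36, whose product speeds the decay of cytokine messages, averaged 42791 and 19875 (1.11, limma adjusted p = 0.127). Ccn1 and Ccn2, targets of the YAP and SRF pathways, had log2 fold changes of -0.38 and -0.012.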
